A study of Mus musculus with 12 samples.

Results

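The proteasome is the protease that degrades proteins tagged with ubiquitin. Its core, the 20S particle, is a barrel of outer alpha rings, which gate the channel, and inner beta rings, which hold the proteolytic sites. The 19S regulatory particle binds ubiquitin chains, removes them, and unfolds the substrate with a ring of ATPases. In cells exposed to interferon and in leukocytes, the immunoproteasome subunits Psmb8, Psmb9 and Psmb10 take the places of the catalytic subunits Psmb5, Psmb6 and Psmb7 and favour peptides that MHC class I molecules present, and activators such as PA28 and PA200 can cap the core in place of the 19S particle. In skeletal muscle the proteasome carries out much of the breakdown of contractile proteins during fasting and disuse. The genes described here are those whose symbol starts with Psma, Psmb, Psmc, Psmd or Psme followed by a number, taken from probe sets annotated to a single gene. They are 42 genes on 88 probe sets, out of 18193 genes on 45037 probe sets. Of these, 36 genes were grouped as constitutive, namely 20S and 19S subunits and 19S chaperones. That group also counts Psma8 and Psmb11, the subunits of testis and thymus described below, which are not constitutive. Another 3 genes encode immunoproteasome subunits and 3 encode the activators Psme1, Psme3 and Psme4. The only probe set for the activator Psme2 was annotated to 2 genes, and it was left out by the rule.

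RNA came from gonadal white adipose tissue (WAT), the thigh muscle M. vastus lateralis and liver of female Ghsr knockout mice aged 12 weeks on a C57BL/6 background, which lack the receptor for acylated ghrelin in every cell, so that every sample of both treatments carried the deletion. Mice received an injection into the peritoneum of unacylated ghrelin (UAG), the form of the hormone without its fatty acid, at 20 nmol/kg, or of saline alone, and tissues were taken 6 h later from animals with free access to chow. Each tissue had 2 arrays with UAG and 2 with saline, which makes 12 in all. The labels tie no array to a mouse, so that p-values measure the spread between these samples only, which may in part be technical. No mice with an intact receptor were analysed here, and the probe set for Ghsr read below 30 on each of the 12 arrays. An intensity is the deposited log2 value returned to a linear scale, with values below 30 set to 30. It has no absolute unit and depends on the probes, so that levels are compared between arrays for 1 gene and never between genes.

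The tissues carried their own marker genes. Summed over the skeletal muscle fibre markers, intensity was 86018 to 90878 in muscle, and the hepatocyte markers summed to 84628 to 116106 in liver. The adipocyte marker sum was 24588 to 33657 for WAT. For muscle it was 10056 to 17510.4 and for liver 250.5 to 328, so that the muscle samples held adipocyte transcripts too. Some arrays of both treatments stood apart from the others of their tissue. WAT saline replicate 1 was high in brown adipocyte markers, at 14594 against 1149.9 to 2929 on the other WAT arrays, and in skeletal muscle fibre markers, at 3581 against 888 to 1571. WAT saline replicate 2 was high in smooth muscle markers, at 25846 against 4376 to 4505. WAT UAG replicate 1 was high in epithelial and mesothelial markers, at 3846 against 2052 to 2203 on the other WAT arrays. Muscle saline replicate 2 was high in interferon response genes, at 3168 against 1314 to 1841 on the other muscle arrays. In whole tissue, fewer cells of a type and less RNA per cell cannot be told apart.

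Of the 42 genes, 40 gave a signal that could be tested in every tissue. The exceptions were Psma8, an alpha subunit of the testis, which was below 30 on all 12 arrays, and Psmb11, the beta subunit of thymic cortical epithelium, which was below 30 on 11 of 12 arrays and at 44.5 on liver saline replicate 2. Differences were tested with limma on the log2 scale and called at a Benjamini-Hochberg adjusted p below 0.05 over all probe sets tested. A gene was read from its probe set with the highest mean intensity. The mean intensity of the probe sets used, over 12 arrays, lay between 1295 for Psma7 and 3087 for Psma3 in the alpha ring, between 964 for Psmb2 and 4311 for Psmb7 in the constitutive beta ring, between 944 for Psmc1 and 1870.1 for Psmc2 among the ATPases, and between 223 for Psmd10 and 2805 for Psmd11 in the rest of the 19S particle. These are levels of probe sets and do not rank the transcripts. The largest differences of the subunits were between tissues, and no subunit was called between UAG and saline.

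**Figure D1:**
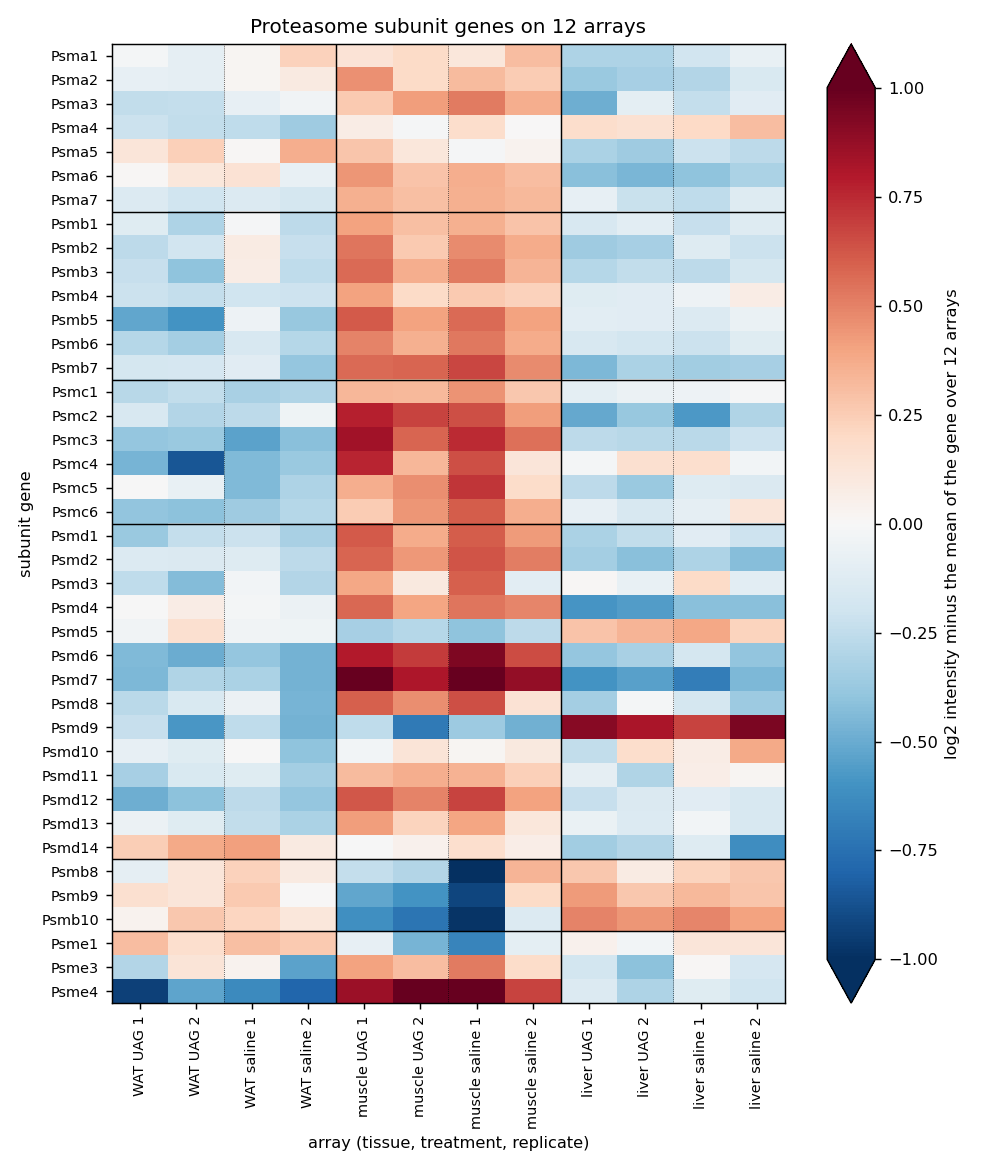
Log2 intensity of the 40 measured subunit genes on each of the 12 arrays, as the difference from the mean of the gene over all arrays (colour scale from -1 to 1). Columns are the arrays by tissue, with UAG left of saline, and rows are genes from the alpha ring at the top to the activators at the bottom. Most constitutive genes were above their mean on the 4 muscle arrays, Psmb8 and Psmb9 were below theirs on 3 of those 4 arrays, and Psmb10 on all 4.

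Most constitutive proteasome genes had higher levels in muscle than in liver or WAT. All tissue differences below are on the log2 scale, the first named tissue minus the second, ± the SE of limma, with 4 arrays per tissue and both treatments pooled. Of the 40 members, 31 were higher and 5 lower in muscle than in liver, where 32.8% of all genes tested were called higher and 29.5% lower. The constitutive genes accounted for 29 of the higher and 2 of the lower calls among 34, with a median log2 difference of 0.60 against 0.021 over all genes. Between WAT and muscle, 4 members were higher and 30 lower in WAT, against 30.6% and 21.3% of all genes. Of the constitutive genes, 28 were lower and 1 higher in WAT than in muscle, with a median of -0.56 against 0.069 over all genes. WAT and liver differed less. Between them 6 members were higher and 8 lower in WAT, against 33.4% and 26.1% of all genes, and the median constitutive difference was -0.043. These comparisons share arrays and are not independent of each other. Leaving out either UAG array of WAT gave 9 calls between WAT and liver in place of 14, and the 6 saline arrays alone gave 22 calls for muscle against liver, 2 for WAT against liver and 14 for WAT against muscle. These subsets hold fewer arrays, and the share of all genes called in them was not counted. The fall in calls thus cannot be set against that of other genes. The values were normalized to equal distributions across arrays, so that a difference is relative to the rest of the transcripts in a tissue. The 3′/5′ ratio of the beta-actin control probe sets, a measure of RNA integrity and labelling, was also set apart in muscle, at 0.898 to 1.13 against 1.7 to 1.96 on the WAT arrays and 1.7 to 2.35 on the liver arrays, while that of Gapdh was 0.732 to 0.779, 0.7 to 0.745 and 0.668 to 0.723. The part of RNA quality in the tissue differences was not tested.

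In the alpha ring, which forms the gate of the core, 6 of 7 genes were higher in muscle than in liver and 5 of 7 were lower in WAT than in muscle. The shares over all genes tested were 32.8% and 21.3%. Psma6 differed most between muscle and liver, by 0.75 ± 0.091 (SE, adjusted p = 4.33e-05), and Psma3 most between WAT and muscle, at -0.54 ± 0.11 (SE, adjusted p = 0.00218). The exception was Psma4, whose intensities were 1394 and 1363 with UAG against 1359 and 1268 with saline in WAT, 1709 and 1605 with UAG against 1832 and 1623 with saline in muscle, and 1833 and 1797 with UAG against 1857 and 2002 with saline in liver. Muscle and liver overlapped for Psma4, and WAT was below both, at -0.48 ± 0.084 (SE, adjusted p = 0.000697) from liver and -0.33 ± 0.084 (SE, adjusted p = 0.00828) from muscle. Psma5 was set apart by its WAT level, which was close to that of muscle, at 0.082 ± 0.10, and above that of liver, at 0.47 ± 0.10 (SE, adjusted p = 0.00217). A second probe set of Psma5, with a mean intensity of 956, gave -0.42 between WAT and muscle and 0.10 between WAT and liver. The WAT pattern of Psma5 thus depends on the probe set read. In all, 4 of 7 alpha genes, namely Psma1, Psma2, Psma5 and Psma6, were higher in WAT than in liver, against 33.4% of all genes.

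All 7 constitutive beta ring genes measured were higher in muscle than in liver and lower in WAT than in muscle, against 32.8% and 21.3% of all genes. Among the 7 are the 3 that carry the proteolytic sites. Psmb5, the chymotrypsin-like subunit and the target of the drug bortezomib, had intensities of 875 and 829.6 with UAG against 1212 and 965 with saline in WAT, 1920.5 and 1658 with UAG against 1866 and 1662 with saline in muscle, and 1166 and 1163 with UAG against 1141 and 1203 with saline in liver. All muscle arrays lay above every WAT and liver array, with muscle minus liver at 0.60 ± 0.10 and WAT minus muscle at -0.89 ± 0.10 (SE, adjusted p = 0.000421 and 5.59e-05). Psmb6, the caspase-like subunit, read 1089 and 1052 with UAG against 1191 and 1095 with saline in WAT, 1876 and 1706 with UAG against 1917 and 1717 with saline in muscle, and 1193 and 1169 with UAG against 1145 and 1225 with saline in liver. Its muscle arrays also stood above all others, by 0.61 ± 0.084 (SE, adjusted p = 0.000112) over liver, and WAT minus muscle was -0.70 ± 0.084 (SE, adjusted p = 7.97e-05). Psmb7, the trypsin-like subunit, gave 3655 and 3675 with UAG against 3816 and 3163 with saline in WAT, 6115 and 6189.6 with UAG against 6544 and 5714 with saline in muscle, and 3029 and 3316 with UAG against 3236 and 3284 with saline in liver. It had the largest muscle to liver difference of the ring, 0.93 ± 0.10 (SE, adjusted p = 1.93e-05), a fold of 1.91. The non-catalytic Psmb1, Psmb2, Psmb3 and Psmb4 differed by 0.32 (Psmb4) to 0.69 (Psmb3) between muscle and liver. Psmb5 was the only beta gene called between WAT and liver, at -0.28 ± 0.10 (SE, adjusted p = 0.0335), and that call was lost on leaving out any 1 of 7 of the 12 arrays.

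The 6 ATPases of the 19S base, which unfold substrates and open the gate, showed the pattern of the beta ring. All 6 were called higher in muscle than in liver and all 6 lower in WAT than in muscle, against 32.8% and 21.3% of all genes. Psmc2 was highest relative to liver, at 1.07 ± 0.10 (SE, adjusted p = 8.1e-06), and Psmc3 lowest in WAT relative to muscle, at -1.11 ± 0.091 (SE, adjusted p = 6.69e-06). Psmc3 read 951 and 963 with UAG against 859.6 and 930.3 with saline in WAT, 2233 and 1868 with UAG against 2094 and 1825 with saline in muscle, and 1041 and 1030.1 with UAG against 1035 and 1078 with saline in liver, and its 4 muscle arrays were above the other 8. Psmc4 was lower in WAT than in liver, at -0.60 ± 0.15 (SE, adjusted p = 0.00555), and Psmc1 and Psmc6 were lower there as well, at -0.23 ± 0.078 and -0.31 ± 0.095 (SE).

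The non-ATPase genes of the 19S particle held the widest range. Of 14 genes, 10 were higher and 2 lower in muscle than in liver, against 32.8% and 29.5% of all genes. In WAT against muscle, 10 of the 14 were lower and 1 higher, against 21.3% and 30.6% of all genes. Psmd7, the scaffold partner of the deubiquitinase in the lid, was the highest in muscle relative to liver. It had intensities of 509.8 and 563 with UAG against 558 and 500.2 with saline in WAT, 1451 and 1218 with UAG against 1459 and 1280.3 with saline in muscle, and 458 and 477 with UAG against 431 and 509.7 with saline in liver. Muscle stood clear of both other tissues, at 2.88 times the liver level, a log2 difference of 1.53 ± 0.10 (SE, adjusted p = 4.03e-07), and WAT minus muscle was -1.34 ± 0.10 (SE, adjusted p = 3.9e-06). The next was Psmd6, a lid subunit, with 1.09 ± 0.10 (SE, adjusted p = 3.44e-06) between muscle and liver and -1.22 ± 0.10 (SE, adjusted p = 4.95e-06) between WAT and muscle. Psmd4, a receptor for ubiquitin chains, was 1.99 times as high in muscle as in liver, at 0.99 ± 0.08 (SE, adjusted p = 1.79e-06), and was also higher in WAT than in liver, at 0.49 ± 0.08 (SE, adjusted p = 0.000412). Psmd14 encodes the deubiquitinase of the lid, which releases ubiquitin from the substrate. Unlike Psmd7 it was not called between WAT and muscle, at 0.21 ± 0.12 (SE, adjusted p = 0.189), and it was the member highest in WAT relative to liver, at 0.63 ± 0.12 (SE, adjusted p = 0.00131).

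The 2 constitutive genes lower in muscle than in liver, Psmd9 and Psmd5, encode chaperones of 19S base assembly, which bind the ATPases and leave before the particle is complete. Psmd9 had intensities of 237 and 186 with UAG against 234 and 201 with saline in WAT, 233 and 170.1 with UAG against 216 and 199.6 with saline in muscle, and 523 and 490.1 with UAG against 444 and 534 with saline in liver. All 4 liver arrays were above all WAT and muscle arrays, with a muscle minus liver difference of -1.29 ± 0.14 (SE, adjusted p = 1.47e-05) and a WAT minus liver difference of -1.22 ± 0.14 (SE, adjusted p = 2.7e-05). Psmd9 had the lowest difference of the 40 members in both contrasts, and WAT minus muscle was not called, at 0.069 ± 0.14 (SE, adjusted p = 0.745). A dimmer probe set of Psmd9, with a mean intensity of 68.4, gave 0.18 between muscle and liver. Another, with a mean intensity below 30, gave -0.18, so that the liver excess over muscle rests on 1 probe set. The probe set at 68.4 gave -0.82 between WAT and liver and -0.996 between WAT and muscle. Psmd5 was lower in muscle than in liver, at -0.63 ± 0.09 (SE, adjusted p = 0.000141), and WAT was above muscle, at 0.33 ± 0.09 (SE, adjusted p = 0.0118). Psmd10, the chaperone also called gankyrin, was called in no tissue contrast, at -0.043 ± 0.14 between muscle and liver and -0.20 ± 0.14 between WAT and muscle. Of the 5 assembly factors of the 20S core, which bring the alpha and beta subunits together, 1 was higher and 3 were lower in muscle than in liver. Among all genes 32.8% were higher and 29.5% lower. Psmg1, Psmg3 and Psmg4 were lower, at -0.68 ± 0.094, -0.56 ± 0.14 and -0.85 ± 0.18, Psmg2 was higher, at 0.45 ± 0.091, and Pomp, the maturation factor of the core, was at 0.075 ± 0.086 (SE, adjusted p = 0.488 for Pomp).

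**Figure D2:**
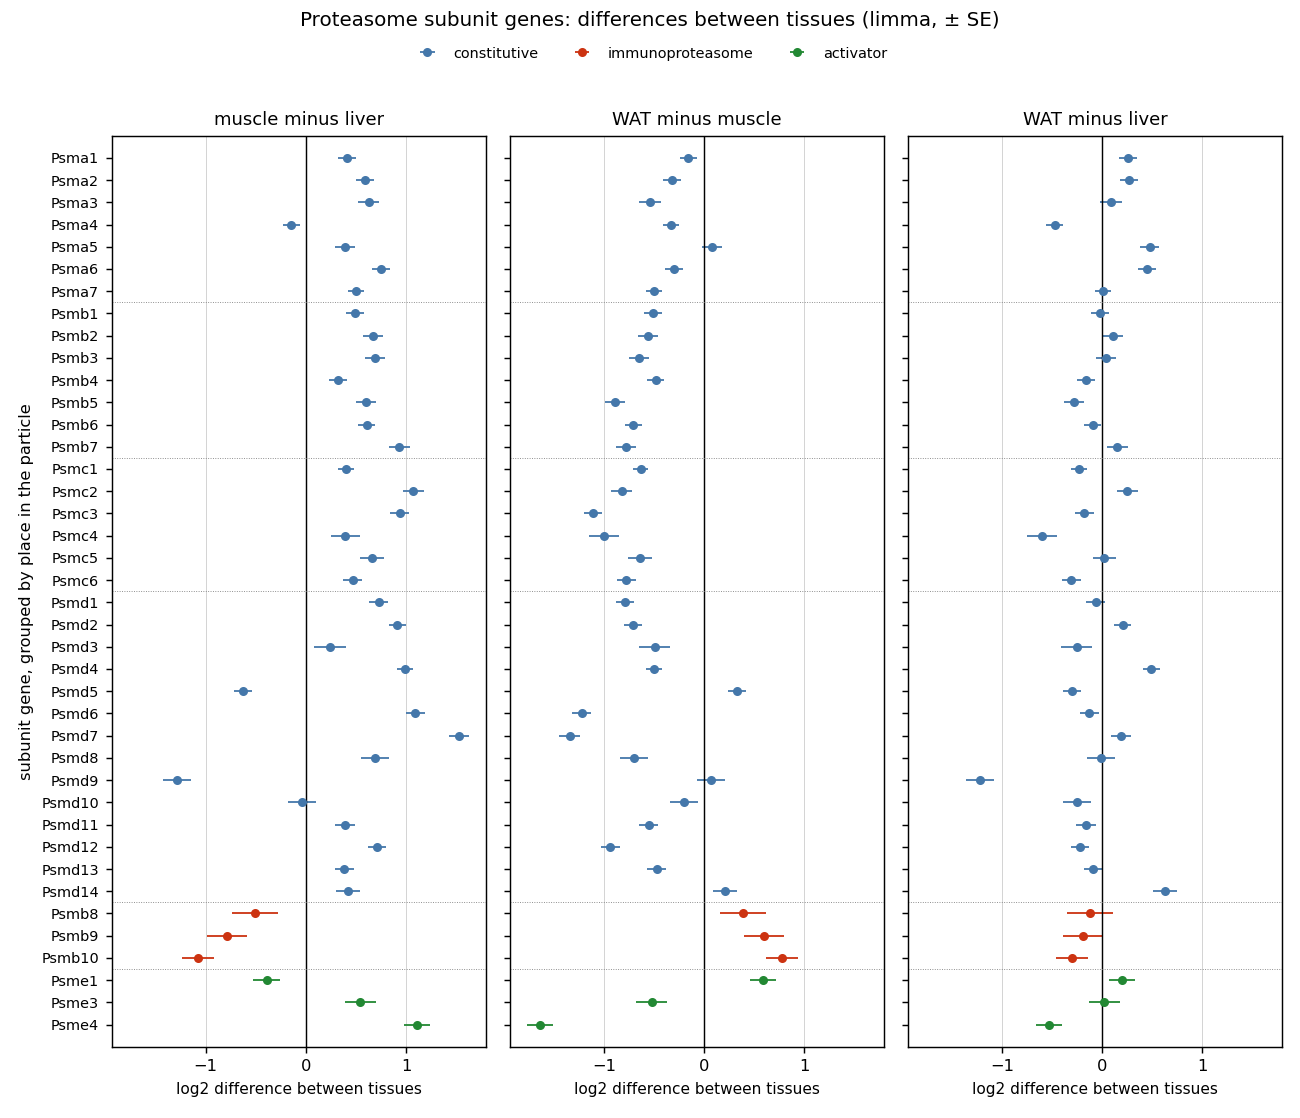
Log2 differences between tissues for the 40 measured subunit genes, as points with SE from limma over 12 arrays (n = 4 per tissue). Genes run from the alpha ring at the top to the activators at the bottom, with constitutive genes in blue, immunoproteasome genes in red and activators in green. Constitutive genes lie mostly right of 0 in muscle minus liver and left of 0 in WAT minus muscle, and the 3 immunoproteasome genes lie on the opposite side in both.

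Of the 3 immunoproteasome genes, 2 were called lower in muscle than in liver and 2 higher in WAT than in muscle, the opposite sign to the constitutive beta ring. The shares over all genes tested were 29.5% and 30.6%. Psmb10, which replaces Psmb7, had intensities of 426 and 499 with UAG against 482 and 448 with saline in WAT, 271 and 249.7 with UAG against 210.0 and 377 with saline in muscle, and 585 and 564 with UAG against 582 and 549 with saline in liver. Every muscle array was below every WAT and liver array, at -1.07 ± 0.16 (SE, adjusted p = 0.000193) for muscle minus liver and 0.77 ± 0.16 (SE, adjusted p = 0.00259) for WAT minus muscle. Psmb9, which replaces Psmb6, read 273 and 266 with UAG against 292 and 244 with saline in WAT, 171 and 161 with UAG against 129 and 279 with saline in muscle, and 328 and 294 with UAG against 306 and 297 with saline in liver. It was lower in muscle than in liver, at -0.79 ± 0.20 (SE, adjusted p = 0.00665) and higher in WAT than in muscle by 0.60 ± 0.20 (SE, adjusted p = 0.0331), although muscle saline replicate 2 reached the WAT range. Psmb8, which replaces Psmb5, gave 338 and 391 with UAG against 421 and 384 with saline in WAT, 305 and 294 with UAG against 179.7 and 456 with saline in muscle, and 432 and 380.4 with UAG against 419 and 432 with saline in liver. The muscle arrays overlapped with the others, and neither the muscle minus liver difference of -0.50 ± 0.23 (SE, adjusted p = 0.085) nor the WAT minus muscle difference of 0.38 ± 0.23 (SE, adjusted p = 0.206) was called. Between WAT and liver none of the 3 genes was called, with differences of -0.12 ± 0.23 for Psmb8, -0.19 ± 0.20 for Psmb9 and -0.30 ± 0.16 for Psmb10 (SE), and 0 had an unadjusted p below 0.05.

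The spread of these genes in muscle came from the saline arrays. All 3 were lowest on muscle saline replicate 1 and highest on muscle saline replicate 2, with the 2 UAG arrays in between. Their summed intensity was 747 and 705 with UAG, against 519 and 1113 with saline. The constitutive genes varied less, and their median deviation from the muscle mean was 0.089 on muscle saline replicate 1 and -0.069 on muscle saline replicate 2, against -0.46 and 0.64 for the immunoproteasome genes on the log2 scale. Without muscle saline replicate 2, Psmb8 was called lower in muscle than in liver, at -0.84 (adjusted p = 0.000122), and higher in WAT than in muscle, at 0.72 (adjusted p = 0.000483). Psmb10 was then also called lower in WAT than in liver, at -0.30 (adjusted p = 0.0154), since the spread is estimated over all 3 tissues, and the same call was made without muscle saline replicate 1. The WAT minus muscle call of Psmb9 was lost on leaving out any 1 of 9 of the 12 arrays, and it held without muscle saline replicate 2. Other transcripts also differed most, or nearly so, between the muscle saline arrays. The MHC class I pathway genes summed to 14549 and 17791 with UAG, against 12102 and 22721 with saline, and the leukocyte markers to 2683 and 3153 with UAG, against 1695 and 3008 with saline. The 6 epithelial and mesothelial markers summed to 583 and 738 with UAG, against 180.0 and 2801 with saline, and all 6 were at the floor of 30 on muscle saline replicate 1 against 2 of 6 on each other muscle array. Adipocyte markers summed to 12569 and 14649 with UAG, against 10056 and 17510.4 with saline. Hepatocyte markers, of which 4 or 5 of 7 were at the floor on each array, summed to 7839 and 9899 with UAG, against 3278 and 12059 with saline. These sums were lowest on saline replicate 1, and all but that of the leukocyte markers were highest on saline replicate 2. The part of other cell types in these levels was not tested.

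**Figure D3:**
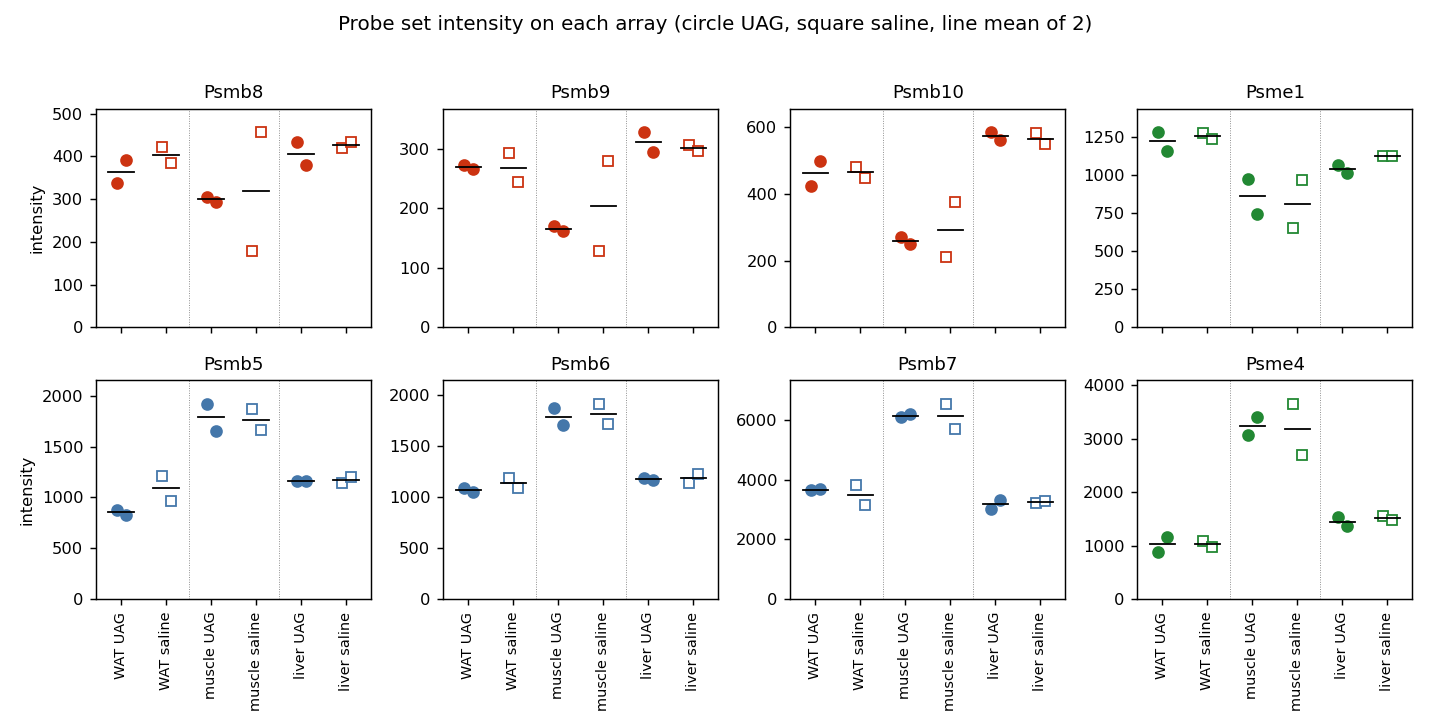
Intensity of 8 subunit genes on each array, by tissue, with UAG (filled circles) left of saline (open squares) and the mean of each pair as a line. The vertical axes start at 0 and differ between genes. The saline muscle arrays are far apart for Psmb8, Psmb9 and Psmb10, whereas Psmb5, Psmb6, Psmb7 and Psme4 are higher on all 4 muscle arrays than on any other array.

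Most genes of antigen presentation, the pathway served by the immunoproteasome, were also lower in muscle. Of 11 MHC class I pathway genes, 10 were lower in muscle than in liver and 11 were higher in WAT than in muscle. Among all genes these shares were 29.5% and 30.6%. Tap1, which carries proteasome products into the endoplasmic reticulum, had intensities of 168 and 156 with UAG against 147 and 158 with saline in WAT, 91.8 and 97.4 with UAG against 58.7 and 152 with saline in muscle, and 201 and 136 with UAG against 152 and 169 with saline in liver. It was at -0.78 ± 0.26 between muscle and liver and at 0.73 ± 0.26 between WAT and muscle (SE, adjusted p = 0.0245 and 0.0403), and as with Psmb9 the highest muscle array was saline replicate 2. The largest muscle minus liver differences of the pathway were -1.60 ± 0.20 for the heavy chain H2-K1, -1.34 ± 0.15 for Pdia3, -1.30 ± 0.12 for the chaperone Calr and -1.22 ± 0.21 for the heavy chain H2-D1 (SE). Of 14 leukocyte markers tested, 7 were lower in muscle than in liver and 10 higher in WAT than in muscle, against 29.5% and 30.6% of all genes. For the interferon response genes only the share called lower in muscle than in liver was close to that of all genes. Among 11 interferon response genes, 4 were lower and 1 higher in muscle than in liver, from -1.49 ± 0.26 for Irf9 to 1.40 ± 0.29 for Gbp2 (SE). The share called lower was 36.4% against 29.5% of all genes, and the share called higher was 9.09% against 32.8%. Between WAT and muscle 36.4% were higher and 0% lower in WAT, against 30.6% and 21.3% of all genes.

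Psmb9 and Tap1 lie head to head on chromosome 17, and the 225 bases between their annotated starts are upstream of both, which is why this stretch is shown. The sequence is from RefSeq for GRCm38.p6, on the plus strand, with capitals for the letters of a CCAAT box (CCAAT, either strand).
Psmb9 and Tap1, chr17:34187331-34187555: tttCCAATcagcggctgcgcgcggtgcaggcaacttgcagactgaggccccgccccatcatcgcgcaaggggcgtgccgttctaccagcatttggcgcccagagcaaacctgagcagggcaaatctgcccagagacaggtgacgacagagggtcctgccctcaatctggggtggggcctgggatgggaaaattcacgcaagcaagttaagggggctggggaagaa
Upstream stretches were found for 35 of the 42 members, and the 250 bases before each start were searched on both strands. A CCAAT box was found for 12 of 29 constitutive genes, Psmb11 among them, a share of 41.4% against 37.5% of all 27025 genes in the table. The letters of an interferon-stimulated response element (GAAANNGAA) were found for 0 of 3 immunoproteasome genes and 3 of 29 constitutive genes, against 8.18% of all genes. Those of a gamma-activated site (TTCNNNGAA) were found for 1 of 3 immunoproteasome genes, Psmb8, and 0 of 29 constitutive genes, against 8.13% of all genes.

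The constitutive subunits are known targets of the transcription factor NRF1 (Nfe2l1), which is released from the endoplasmic reticulum when the proteasome is inhibited and binds antioxidant response elements together with small MAF proteins. The letters TGACNNNGC of that element were found upstream of 5 of 29 constitutive genes (17.2%), against 11.5% of all genes. All 5 stretches with the letters are shown. Of these genes, 4 were higher in muscle than in liver and 1 was lower, against 85.3% and 5.88% of the 34 constitutive genes tested. Each stretch reads 5′ to 3′ on the strand of its gene, with the element in capitals and up to 25 bases on either side.
Psmb5, chr14:54618009-54618067, minus strand: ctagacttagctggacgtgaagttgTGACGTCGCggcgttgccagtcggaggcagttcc
Psmb6, chr11:70525323-70525356, plus strand: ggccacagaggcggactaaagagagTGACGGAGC
Psmc6, chr14:45329574-45329630, plus strand: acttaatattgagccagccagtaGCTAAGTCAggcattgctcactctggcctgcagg
Psmd12, chr11:107479278-107479314, plus strand: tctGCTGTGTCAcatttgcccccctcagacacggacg
Psmd9, chr5:123228134-123228189, plus strand: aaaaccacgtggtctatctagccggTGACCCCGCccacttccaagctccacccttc
The muscle minus liver difference was 0.60 ± 0.10 for Psmb5, 0.61 ± 0.084 for Psmb6, 0.47 ± 0.095 for Psmc6, 0.71 ± 0.091 for Psmd12 and -1.29 ± 0.14 for Psmd9 (SE). The letters were present before genes of both directions, and a match is not evidence of binding. Nfe2l1 itself had intensities of 974 and 967 with UAG against 970.4 and 696 with saline in WAT, 1198 and 1205 with UAG against 1191 and 952 with saline in muscle, and 390.3 and 309 with UAG against 321 and 349.9 with saline in liver. Liver was lowest, with a muscle minus liver difference of 1.73 ± 0.13 and a WAT minus liver difference of 1.39 ± 0.13 (SE, adjusted p = 9.79e-07 and 6.68e-06). The median constitutive gene was at -0.043 between WAT and liver. The part of Nfe2l1 in the subunit levels was not tested. Of 8 genes of the NRF1 axis, 4 were higher and 1 lower in muscle than in liver, where 32.8% of all genes were higher and 29.5% lower. Among the 8 were Vcp, the extractor of NRF1, at 0.44 ± 0.092, its cofactor Ufd1 at 0.54 ± 0.12 and the partner Mafg at -0.64 ± 0.13 (SE).

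The 3 activators each had their own tissue pattern. Psme4, which encodes PA200, a cap found mainly in the nucleus, had intensities of 882 and 1170.2 with UAG against 1085 and 977 with saline in WAT, 3063 and 3410.0 with UAG against 3653 and 2696 with saline in muscle, and 1533 and 1363 with UAG against 1552 and 1474 with saline in liver. Muscle was 2.15 times liver, at 1.11 ± 0.13 (SE, adjusted p = 2.86e-05), and WAT minus muscle, at -1.64 ± 0.13 (SE, adjusted p = 4.69e-06), was the lowest of the 40 members. WAT was also below liver, at -0.53 ± 0.13 (SE, adjusted p = 0.00487), a call that was lost when probe sets were averaged (-0.22, adjusted p = 0.243) and with the saline arrays alone (adjusted p = 0.0759). Psme1, the interferon-inducible PA28 alpha subunit, gave 1279.6 and 1159.9 with UAG against 1273 and 1237 with saline in WAT, 976 and 745 with UAG against 651 and 964 with saline in muscle, and 1062 and 1012 with UAG against 1121 and 1122 with saline in liver. Like the immunoproteasome genes it was lower in muscle than in liver, at -0.39 ± 0.13 (SE, adjusted p = 0.0267), and higher in WAT than in muscle, by 0.59 ± 0.13 (SE, adjusted p = 0.00415). The muscle minus liver call of Psme1 was lost on leaving out any 1 of 6 of the 12 arrays. With the saline arrays alone both calls of Psme1 were lost (limma adjusted p = 0.115 and 0.0809). Psme3, the PA28 gamma subunit of the nucleus, read 255 and 340.2 with UAG against 319 and 215 with saline in WAT, 413 and 386 with UAG against 448 and 354 with saline in muscle, and 274 and 235 with UAG against 314 and 277 with saline in liver. It was higher in muscle than in liver by 0.54 ± 0.15 (SE, adjusted p = 0.0117) and lower in WAT than in muscle, at -0.52 ± 0.15 (SE, adjusted p = 0.018). A second probe set of Psme3 of similar intensity gave -0.70 between muscle and liver and 0.054 between WAT and muscle, so that the direction for Psme3 is not settled. The WAT minus muscle call was also lost without WAT UAG replicate 1, WAT saline replicate 2, muscle UAG replicate 1 or muscle saline replicate 1.

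Of 8 genes for proteins that bind the particle or inhibit it, 4 were higher and 1 lower in muscle than in liver. Among all genes 32.8% were higher and 29.5% lower. Zfand5, which stimulates the 26S particle and is induced in wasting muscle of mice, had intensities of 1202 and 1198 with UAG against 1225 and 1337 with saline in WAT, 4701 and 5262 with UAG against 4732 and 4223 with saline in muscle, and 1094 and 1114 with UAG against 1186 and 1485 with saline in liver. It was higher in muscle than in liver by 1.96 ± 0.10 and lower in WAT than in muscle, at -1.93 ± 0.10 (SE, adjusted p = 4.58e-08 and 2.2e-07). Ecpas, a scaffold that binds the 26S particle, was higher in muscle than in liver by 1.46 ± 0.12, and Psmf1, which encodes the inhibitor PI31, was lower, at -0.95 ± 0.10. Sem1, the smallest subunit of the lid, which the naming rule left out of the family, was higher by 0.64 ± 0.084 (SE). Of 4 genes that ferry ubiquitin chains to the particle, Ubqln4 and Ubqln2 were higher, by 0.80 ± 0.15 and 0.47 ± 0.14, and Rad23b and Ubqln1 lower, at -0.38 ± 0.12 and -0.32 ± 0.09 (SE). Of 7 muscle ubiquitin ligase genes, 71.4% were called higher and 28.6% lower in muscle than in liver, against 32.8% and 29.5% of all genes. Trim63 (MuRF1) and Fbxo32 (atrogin-1), which mark contractile proteins for the proteasome, were both called higher, with Trim63 at 6.94 ± 0.12 (SE), a value that depends on the floor. Trim63 read 3710.2 and 4614 with UAG against 2997 and 3582 with saline in muscle and was below 30 on all WAT and liver arrays.

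The second question was whether UAG changed these transcripts within 6 h. In no tissue did limma call a subunit gene, none had an unadjusted p below 0.05, and none changed 2-fold by the ratio of means. No gene of any kind was called in WAT, muscle or liver (0%, 0% and 0% of genes), and the share with an unadjusted p below 0.05 was 7.12% for WAT, 1.85% for muscle and 3.38% for liver. By the ratio of means, 1.63%, 0.418% and 0.396% of all genes changed 2-fold in WAT, muscle and liver. With 2 arrays a group, these data cannot show a small change, and a missed call is not evidence that a gene stayed the same. The UAG minus saline difference farthest from 0 was -0.34 on the log2 scale, for Psmb5 in WAT.

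In WAT, 16 members were higher and 24 lower with UAG than with saline, against 45.6% of all genes lower. There were 6 with both UAG arrays above both saline arrays and 9 with both below, where 24% and 14.2% of all genes did so. The median of the constitutive genes was -0.017, against 0.029 over all genes. Psmb5 had the largest difference. Its intensities were 875 and 829.6 with UAG against 1212 and 965 with saline, so that both UAG arrays were lower, at -0.34 ± 0.17 (SE, limma adjusted p = 0.758). Without WAT saline replicate 1 it was -0.18, a smaller difference than that of Psmc5, which was then 0.27. Psmc5, an ATPase of the 19S base, went the other way, at 1021 and 971 with UAG against 755 and 827 with saline. Both UAG arrays were higher, by 0.33 ± 0.14 (SE, adjusted p = 0.751), and in the same ring Psmc4 was at -0.25 ± 0.18 (SE, adjusted p = 0.819). Psmb3 was at -0.23 ± 0.17, with overlapping arrays. The other catalytic genes Psmb6 and Psmb7 were at -0.093 ± 0.14 and 0.077 ± 0.17, and the immunoproteasome genes Psmb8, Psmb9 and Psmb10, at -0.15 ± 0.16, 0.011 ± 0.17 and -0.011 ± 0.16. For the activators Psme1, Psme3 and Psme4 the differences were -0.043 ± 0.14, 0.17 ± 0.26 and -0.019 ± 0.19 (SE). WAT saline replicate 1 was the array high in brown adipocyte and muscle fibre markers, and saline replicate 2 was high in smooth muscle markers. The muscle fibre sum was 3581 on saline replicate 1 and 888 on saline replicate 2, against 1259 and 1571 with UAG. Of the 6 muscle fibre markers, 5 were lower with UAG, with a median of -1.65 and none called. Only 1 of them had both UAG arrays below both saline arrays. The part of muscle tissue in the subunit differences was not tested. The constitutive median was 0.031 without saline replicate 1 and -0.082 without saline replicate 2.

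In muscle, 20 members were higher and 20 lower with UAG than with saline, against 47.7% of all genes lower. There were 2 with both UAG arrays above both saline arrays and 1 with both below, where 11.8% and 9.77% of all genes did so. The constitutive median was -0.0091, against 0.01 over all genes, and it was 0.077 without UAG replicate 2 and -0.081 without saline replicate 2. Psmc2 had the largest difference, with intensities of 3038 and 2824 with UAG against 2764 and 2368 with saline. Both UAG arrays were above both saline arrays, at 0.20 ± 0.16 (SE, limma adjusted p = 1.00), and the same held for Psma5 of the alpha ring, at 0.19 ± 0.16. Psmc4 was at 0.16 ± 0.23 with overlap. Psmb9 was at -0.19 ± 0.35, where the saline arrays lay on either side of the UAG arrays, as they did for Psmb10, at -0.11 ± 0.29, and Psmb8, at 0.064 ± 0.38. The catalytic genes Psmb5, Psmb6 and Psmb7 differed by 0.019 ± 0.17, -0.021 ± 0.17 and 0.0088 ± 0.16, and the activators Psme1, Psme3 and Psme4 by 0.11 ± 0.24, 0.0051 ± 0.21 and 0.042 ± 0.19 (SE). Of the leukocyte markers, 10 of 10 tested were higher with UAG, with a median of 0.44. Brown adipocyte markers were lower for 3 of 4, with a median of -0.77, and no gene of either list was called. The part of other cell types in the subunit differences was not tested. The ligases of muscle wasting were not called. Fbxo32 read 2857 and 2610.4 with UAG against 2390.4 and 2803 with saline with overlap, and Trim63 differed by 0.34 ± 0.18 (SE, adjusted p = 1.00).

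In liver the differences were small and mostly of one sign. Here 9 members were higher and 31 lower with UAG than with saline, against 48.4% of all genes lower, and there were 0 with both UAG arrays above both saline arrays and 14 with both below, where 15.2% and 14.4% of all genes did so. Of the constitutive genes, 27 of 34 were lower, and their median was -0.051, against 0.0073 over all genes. This is a description of subunits that vary together on 4 arrays, and no test was made of it. The median deviation of the constitutive genes from the liver mean was -0.034 and -0.02 on the UAG arrays, against 0.0072 and 0.045 on the saline arrays. Psmd11, a lid subunit whose phosphorylation raises proteasome activity, had intensities of 2593 and 2239 with UAG against 2890.4 and 2796 with saline. Both UAG arrays were lower, at -0.24 ± 0.12 (SE, limma adjusted p = 1.00), but the difference was -0.012 when its probe sets were averaged, and its next 3 brightest probe sets gave -0.041, -0.11 and 0.032. Psmc5 gave 852 and 789.9 with UAG against 938 and 927 with saline, again without overlap and with the sign opposite to that in WAT, at -0.18 ± 0.11 (SE, adjusted p = 1.00). Psmd10 had the largest difference, -0.27 ± 0.20, on overlapping arrays, and Psme3 was at -0.21 ± 0.16 with UAG below saline. The other activators Psme1 and Psme4 were at -0.11 ± 0.11 and -0.065 ± 0.11. The catalytic genes Psmb5, Psmb6 and Psmb7 were at -0.0081 ± 0.11, -0.004 ± 0.11 and -0.041 ± 0.12, and Psmb8, Psmb9 and Psmb10, at -0.07 ± 0.13, 0.045 ± 0.14 and 0.023 ± 0.11 (SE). Beside this, 7 of 7 hepatocyte markers were higher with UAG, with a median of 0.20, and 3 of 3 epithelial and mesothelial markers tested were lower, with a median of -0.16, none of them called. The beta-actin 3′/5′ ratio was 1.94 and 2.35 on the UAG arrays, against 1.7 and 1.78 on the saline arrays, and that of Gapdh was 0.723 and 0.695 against 0.714 and 0.668, which overlapped. The part of these in the shift was not tested.

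**Figure D4:**
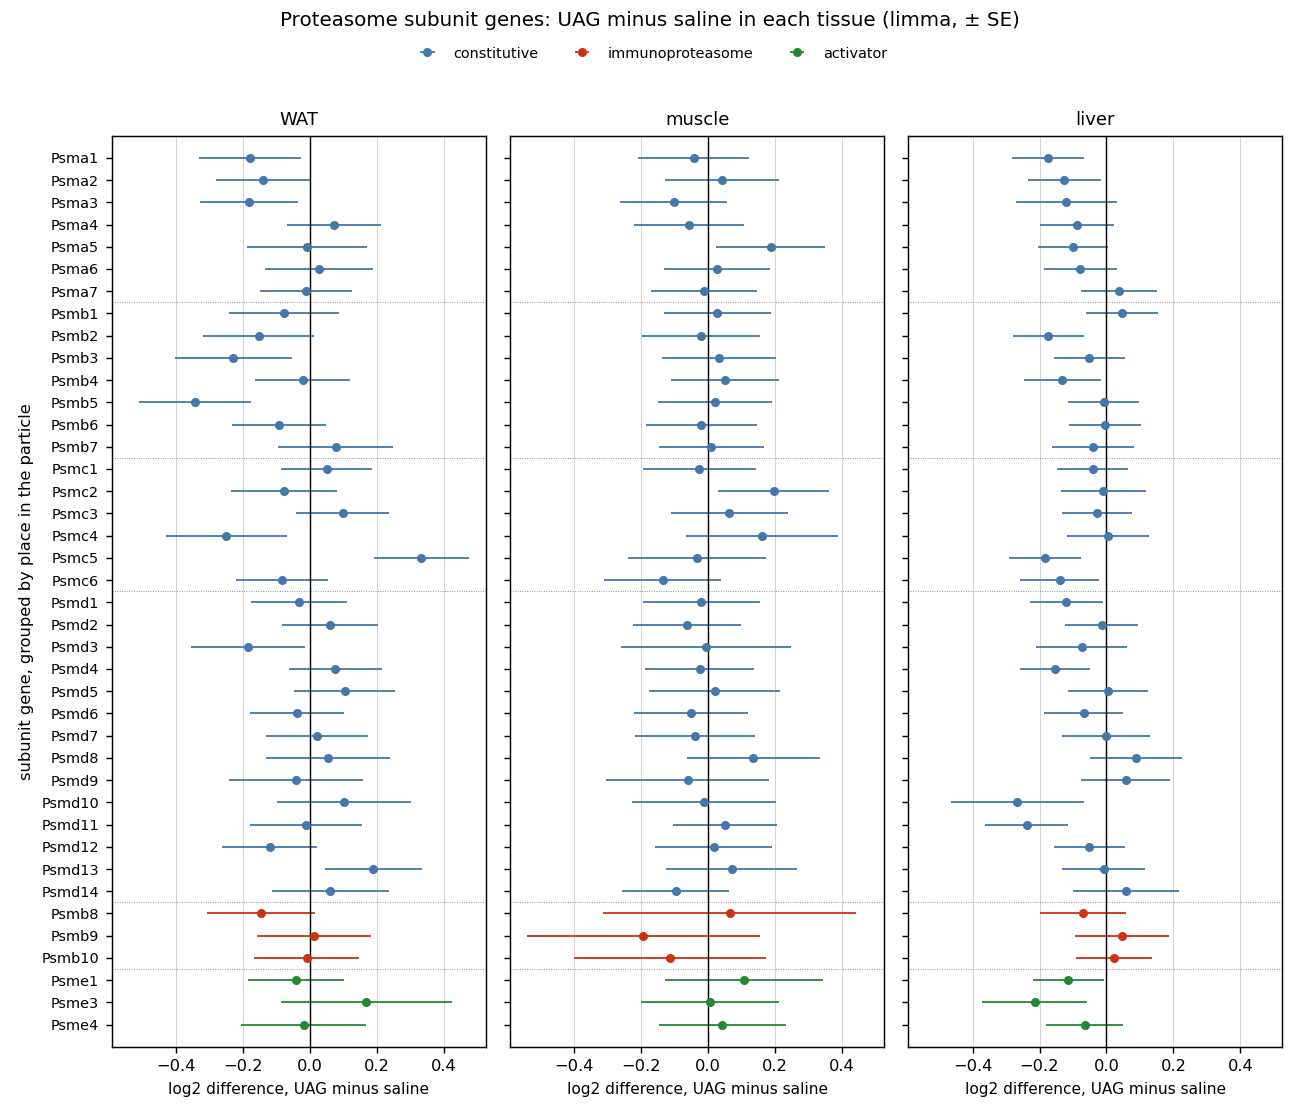
Log2 difference between UAG and saline for the 40 measured subunit genes in WAT, muscle and liver, as points with SE from limma over 4 arrays per tissue (n = 2 per treatment). Genes run from the alpha ring at the top to the activators at the bottom. The points scatter on both sides of 0 in WAT and muscle, and in liver 31 of 40 lie below 0 and none was called.

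The effect of UAG was not shown to differ between tissues for any subunit. In a fit of all 12 arrays, the difference of the UAG effects was called for 0 of 40 members between WAT and muscle, WAT and liver, and muscle and liver, against 0.00731%, 0% and 0% of all genes. At an unadjusted p below 0.05 there were 0, 1 and 0 members in these 3 comparisons. The one between WAT and liver was Psmc5, at 0.52 ± 0.23 (SE, limma adjusted p = 0.914).

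Among the 40 members, 22 had more than 1 probe set. Between muscle and liver 8 of 36 other probe sets went against the one used, and 3 of 19 did so among those with a mean intensity of at least 100. Those 3 belonged to Psma6, Psmd13 and Psme3, at -0.028, -0.26 and -0.70. The other 5 belonged to Psmb1, Psmd7, Psmd9, Psmd11 and Psmd13. Dimmer probe sets of Psmb1, at -1.11, and Psmd13, at -1.57, differed from the one used by more than 1 on the log2 scale, as did those of Psmd7 and Psmd9 and the second probe set of Psme3. Between WAT and liver 10 and between WAT and muscle 7 of the 36 went the other way. For UAG minus saline the numbers were 11 of 30 in WAT, 16 of 33 in muscle and 10 of 32 in liver, and the only one to differ by more than 1 was the dim Psma6 probe set in muscle, at 1.14. The probe sets used for Psma6 and Psmc2 are of the kind that may bind related transcripts, and those used for Psmd11 and Psme4 may bind transcripts of more than 1 gene.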

How the data were processed

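RNA of 12 samples was hybridized to Affymetrix mouse genome arrays by the authors. The deposited values are log2 intensities, quantile normalized by the authors per the methods, and the processing notes name MAS5 with no version. No source gives the log base, which was taken as 2. Control probe sets were left out. Values were floored at 30, and probe sets with a mean intensity below 30 were not tested. Each tissue was fitted with limma 3.58.1 in R 4.3.3 on its 4 arrays with an intensity trend, and tissue contrasts and interactions in 1 fit of 12 arrays, without a term for the mouse. The Benjamini-Hochberg adjustment ran over all probe sets tested. Genes named are the catalytic, immunoproteasome and activator subunits, the 4 largest UAG differences per tissue, the 3 highest and lowest members per tissue contrast, and members of other lists past the test or with the largest differences. The highest and lowest probe set of each ring or particle by level are also named, and further members were named after their values were seen. Members, lists and the naming rule were chosen with earlier results of these data known. The methods were tested on simulated data. Alternatives were other floors, filters, normalizations, summaries of probe sets, no variance trend, replicate and mouse blocks, subsets of the arrays and each array left out. The number of arrays limits the precision, and array data give no read depth.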

Additional observations from a re-analysis of the deposited data

How the results depend on the processing

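No subunit was called between UAG and saline in any tissue under any alternative, and none in a difference of UAG effects between tissues. There were 925 values of 37 tissue differences of named genes, of which 859 were counted as unchanged. Of the rest, 53 lost the call, 6 gained one in the same direction, 6 moved by 1 SE or more and 1 reversed. A called difference was unchanged if it kept direction and call. One not called was unchanged if it moved by less than 1 SE, whatever its sign, and reversals were counted for called differences only. Psme3 in WAT minus liver was counted as moved, at -0.60 with averaged probe sets (limma adjusted p = 0.0196). Of 552 values of 36 UAG differences, 528 moved by less than 1 SE and 24 by more, among them Psme3 in WAT (0.67), Psmb8 in muscle (-0.56) and Psme4 in liver (0.30), all with averaged probe sets. Psme3 in muscle minus liver was -0.049 when probe sets of 1 gene were averaged, since its 2 probe sets oppose each other. Psmd7 kept its direction there but lost the call (0.60, limma adjusted p = 0.071). Without a floor, 1 gene changed 2-fold in muscle, Psma8, whose intensities were below the floor on all arrays. The 6 saline arrays alone, with fewer samples, gave 22 called genes between muscle and liver, 2 between WAT and liver and 14 between WAT and muscle. The 6 UAG arrays alone, an alternative chosen after seeing the data, gave 35, 11 and 33. Shares of all genes called in these subsets were not counted. Over the arrays left out in turn, the calls ranged over 33 to 38 for muscle against liver, 9 to 17 for WAT against liver and 30 to 35 for WAT against muscle. The lowest WAT against liver count came without either UAG array of WAT. The constitutive median of UAG minus saline ranged over -0.082 to 0.031 for WAT, -0.081 to 0.077 for muscle and -0.075 to -0.035 for liver. The deviations of same-numbered arrays correlated at -0.18 for WAT, 0.18 for muscle and -0.03 for liver, and the labels tie the numbers to no mouse or batch, so that they were not taken as pairs. In muscle, the constitutive genes deviated by 0.074 and -0.065 on the UAG arrays and 0.089 and -0.069 on the saline arrays, so that same-numbered arrays lay on the same side. With the replicate block, 0 genes were called between UAG and saline in each tissue, and the tissue contrasts had 36, 14 and 34 calls. With the numbers crossed in WAT, chosen after seeing the data, 0 genes were called. The 2 arrays per group limit what could be called.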
